A study of Homo sapiens with 18 samples.

Results

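The APOBEC3 genes are a family of cytidine deaminases that lie side by side on human chromosome 22. The 7 members described here, APOBEC3A, APOBEC3B, APOBEC3C, APOBEC3D, APOBEC3F, APOBEC3G and APOBEC3H, were taken from the count table by gene name and are 7 of its 58735 genes. The family was chosen by its levels in tazemetostat against vehicle mice, which were already known, so those values are given below as a description and support no claim. Of the 7 members, 6 passed the low-count filter that left 20301 genes for testing, and APOBEC3A did not.

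The data are bulk RNA-seq of OCI-Ly18, a human cell line from a diffuse large B-cell lymphoma, grown as a tumour under the skin of NSG mice, which lack their own mature T, B and natural killer cells. In the tazemetostat group, mice received the EZH2 inhibitor tazemetostat (EPZ6438) by gavage at 150 mg/kg daily for 14 days from day 3 after implantation and were then infused with CART19 cells, human T cells that carry a chimeric antigen receptor (CAR). The vehicle group received vehicle on the same schedule and the same CART19 infusion, so every library comes from a tumour exposed to CAR T cells. Tumours were taken 11 days after infusion, and GFP+ tumour cells were sorted away from the CART19 cells before RNA extraction. Each group holds 3 mice with 3 libraries each, 18 libraries in all: M_767, M_768 and M_774 received tazemetostat, and M_766, M_769 and M_770 received vehicle. The 3 libraries of a mouse, lettered A to C, were summed, and the mouse is the replicate. All libraries come from 1 cell line, and no age or sex is given for the mice.

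APOBEC3 enzymes convert cytosine to uracil, mainly in single-stranded DNA. APOBEC3D, APOBEC3F, APOBEC3G and some forms of APOBEC3H enter retroviral particles and deaminate the nascent viral DNA, which makes them part of innate antiviral defence, and several of the genes are induced by interferon. APOBEC3A and APOBEC3B are the members most often tied to mutations in tumour genomes.

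Libraries held between 16124494 and 26336269 counts. The third library of tazemetostat mouse M_768 had the lowest TMM scaling factor, 0.901, whereas the other 17 lay between 0.978 and 1.03. Of 8 B-cell identity genes, 5 had a positive and 3 a negative log2 fold change, tazemetostat over vehicle, with a median of 0.03. EBF1, a transcription factor that sets B-cell identity, averaged 114 ± 13.7 counts per 1000000 (CPM) in tazemetostat mice and 100.2 ± 11.01 CPM in vehicle mice (SD, n = 3 each). BCL6, the germinal centre repressor, averaged 88.5 ± 6.35 CPM in tazemetostat mice and 101 ± 20.8 CPM in vehicle mice, and CD22, a B-cell surface lectin, 214 ± 38.03 CPM in tazemetostat mice and 239 ± 20.6 CPM in vehicle mice. EZH2, the target of the drug, averaged 208 ± 8.39 CPM in tazemetostat mice and 207 ± 9.01 CPM in vehicle mice, and a transcript level does not report inhibition of the enzyme. Of the defining T-cell genes, CD3D and CD3G had 0 counts in every library, and CD3E had 11 counts in all tazemetostat libraries and 16 in all vehicle libraries. The 18 T-cell markers summed to between 350 and 384 CPM in tazemetostat mice and between 369 and 414 CPM in vehicle mice, mostly from IL7R, TRBC2 and CD247. CD247 averaged 49.2 ± 3.95 CPM in tazemetostat mice and 36.6 ± 5.81 CPM in vehicle mice, and its part in the results was not tested. The 8 human myeloid markers summed to between 1.03 and 1.47 CPM in tazemetostat mice and between 1.08 and 1.33 CPM in vehicle mice, with FCGR3A, S100A8 and S100A9 at 0 counts.

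On the hg38 build the members run along the plus strand in the order A, B, C, D, F, G, H over 151 kb, from the start of APOBEC3A at chr22:38952741 to the end of APOBEC3H at chr22:39104067. APOBEC3G spans chr22:39077005-39087743 and APOBEC3H spans chr22:39097224-39104067. The cluster lies between CBX6 and CBX7, which encode chromobox proteins. The gene models and transcripts overlap or resemble each other, which limits how reads could be assigned to single members, and the sources used here do not give the strand or multimapping settings of the counting. APOBEC3A and APOBEC3B share 348 exonic bases, which is 18.4% of APOBEC3B. APOBEC3B also overlaps its antisense gene APOBEC3B-AS1 over 244 exonic bases. APOBEC3D shares 83.2% of its exonic bases with the longer model AL022318.4, which runs from within APOBEC3C to the end of APOBEC3D and had 0 counts in 18 of 18 libraries. When transcripts were cut into stretches of 50 bases, the share of stretches also found in transcripts of another gene was 86.2% for APOBEC3D, and for APOBEC3B 794 of 1985 stretches were shared. It was 21.0% for APOBEC3F, 7.73% for APOBEC3G and 1.28% for APOBEC3C, and 0% for APOBEC3H. The values of APOBEC3B and APOBEC3D are therefore the least certain of the tested members.

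The promoter of APOBEC3H is shown because it is the only one of the 7 members with an entry in the RefSeq promoter table (GRCh38.p14), and because interferon response motifs are searched in it. It is chr22:39096994-39097293 on the plus strand, 250 bases before the start site and 50 from it, 5′ to 3′, with GAAA, the core of the interferon regulatory factor (IRF) site, in capitals wherever it occurs on the printed strand.
APOBEC3H promoter: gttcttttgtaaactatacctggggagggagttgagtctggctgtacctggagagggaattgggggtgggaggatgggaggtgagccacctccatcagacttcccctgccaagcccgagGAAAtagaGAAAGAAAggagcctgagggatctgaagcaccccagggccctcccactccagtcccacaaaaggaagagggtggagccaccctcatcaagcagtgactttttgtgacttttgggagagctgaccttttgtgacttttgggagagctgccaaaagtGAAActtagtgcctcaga
GAAA occurred 4 times on the printed strand and not on the other, at offsets of -131, -123, -119 and 32 from the start site, and at least 1 match on either strand was present in 86.3% of 35116 RefSeq promoters. The IRF site pair GAAANNGAAA, 3.57% of promoters, and the gamma-activated sequence TTCNNNGAA, 7.66% of promoters, were searched on both strands and had no match in this window.

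APOBEC3G, which is packaged into retroviral particles and edits viral DNA, was separated between the groups in every library. It stood at 27.5, 27.4 and 25.1 CPM in tazemetostat mice M_767, M_768 and M_774, against 17.1, 17.8 and 18.7 CPM in vehicle mice M_766, M_769 and M_770. All 3 tazemetostat mice lay above all 3 vehicle mice, as was so for 6.59% of all tested genes. The means were 26.7 ± 1.38 CPM with tazemetostat and 17.9 ± 0.811 CPM with vehicle (SD, n = 3 each), a fold of 1.49 (log2 fold change 0.58, SE 0.0944). Across the 9 libraries of each group the lowest, median and highest values were 23.2, 26.5 and 28.7 CPM with tazemetostat and 15.9, 18.1 and 19.5 CPM with vehicle, so that no library of one group reached those of the other. In a bulk sample, fewer cells expressing a gene and less RNA per cell cannot be told apart, and this holds for every value below.

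APOBEC3F, the closest relative of APOBEC3G in this antiviral role, was at 6.38, 4.77 and 4.57 CPM in tazemetostat mice, against 3.34, 3.03 and 3.78 CPM in vehicle mice. The mice of the groups did not overlap, although mouse M_767 stood well above the other tazemetostat mice. Means were 5.24 ± 0.988 CPM with tazemetostat and 3.38 ± 0.379 CPM with vehicle (log2 fold change 0.63, SE 0.179). APOBEC3D, a weaker inhibitor of retroviruses, was at 1.11, 0.915 and 0.915 CPM in tazemetostat mice, against 0.524, 0.752 and 0.579 CPM in vehicle mice. The mice of the groups did not overlap for APOBEC3D either, and the log2 fold change was 0.67 (SE 0.252). These values came from 79, 60 and 54 counts in tazemetostat mice and 34, 44 and 32 in vehicle mice. Single libraries did overlap, from 0.576 to 1.19 CPM with tazemetostat and from 0.329 to 1.01 CPM with vehicle. APOBEC3H, a small enzyme whose antiviral activity varies with its haplotype, was at 1.24, 0.793 and 0.677 CPM in tazemetostat mice, against 0.477, 0.462 and 0.488 CPM in vehicle mice. Again mouse M_767 was the highest of the tazemetostat mice, and the log2 fold change was 0.93 (SE 0.296). APOBEC3H had 88, 52 and 40 counts in tazemetostat mice and 31, 27 and 27 in vehicle mice. The closeness of the vehicle mice therefore rests on few counts, and the libraries of M_769 held 7, 19 and 1. Single libraries overlapped, from 0.408 to 1.56 CPM with tazemetostat and from 0.0536 to 0.917 CPM with vehicle.

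APOBEC3C, a small enzyme with weak antiviral activity, gave more counts than any other member in all 6 mice. It stood at 46.7, 42.1 and 44.2 CPM in tazemetostat mice, against 32.1, 33.3 and 40.7 CPM in vehicle mice. The mice did not overlap, but vehicle mouse M_770 was close to tazemetostat mouse M_768, and single libraries did overlap: they ran from 39.3 to 50.3 CPM with tazemetostat, median 44.4, and from 29.4 to 43.5 CPM with vehicle, median 33.5. Means were 44.3 ± 2.30 CPM with tazemetostat and 35.4 ± 4.65 CPM with vehicle (log2 fold change 0.32, SE 0.108).

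The members tied to tumour mutations were nearly absent. APOBEC3B was at 0.183, 0.0762 and 0.203 CPM in tazemetostat mice, against 0.216, 0.171 and 0.145 CPM in vehicle mice, from between 5 and 14 counts per mouse. The groups overlapped, and the log2 fold change was -0.21 (SE 0.465). APOBEC3A had 0 counts in all tazemetostat libraries and 1 count in all vehicle libraries. A count of 0 at this depth allows up to 3 counts over the tazemetostat group, or 0.0154 CPM, and the single vehicle count corresponds to 0.00558 CPM over the vehicle group, both with counting error only.

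**Figure D1:**
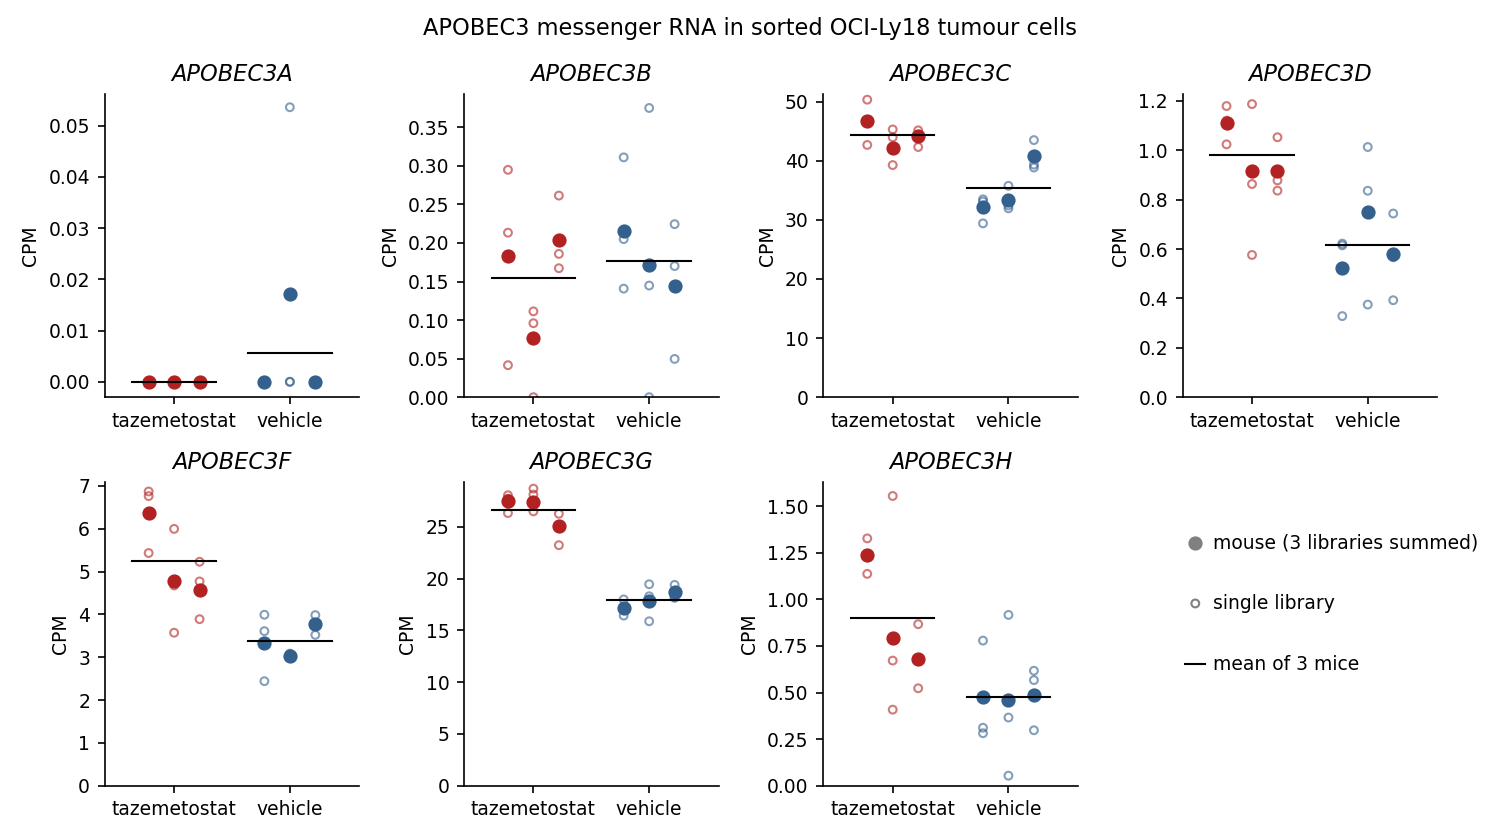
CPM of the APOBEC3 members, with the 3 tazemetostat mice left of the 3 vehicle mice (filled points), their single libraries (open points) and a line for the mean of each group. For APOBEC3C, D, F, G and H all tazemetostat mice lie above all vehicle mice, as for 6.59% of all tested genes. For APOBEC3B the mice of the groups overlap. The members were chosen by these values. APOBEC3G mice lie at 25.1 to 27.5 CPM with tazemetostat and 17.1 to 18.7 CPM with vehicle. Single libraries of APOBEC3C, D, F and H overlap.

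With edgeR's quasi-likelihood test across all tested genes, 0 of the 6 tested members were called higher at an adjusted p under 0.05, where 0.0197% of all tested genes were called higher. At an unadjusted p under 0.05 the count was 5 of 6, against 6.55% of all tested genes. DESeq2, which gave no adjusted p for APOBEC3B, called 1 of the other 5 (APOBEC3G), against 0.656% of the genes to which it gave one. With limma-voom on the 18 libraries, 2 of 6 were called (APOBEC3C and APOBEC3G), against 1.26% of all tested genes. That fit used a single correlation of 0.354 between libraries of a mouse for all genes. A gene whose libraries are more alike within a mouse than that can be called too readily. In 5 of the 6 tested members all tazemetostat mice lay above all vehicle mice, as did 6.59% of all tested genes. For APOBEC3G all 9 tazemetostat libraries lay above all 9 vehicle libraries, as did 0.739% of all tested genes. Because these values chose the members, nothing is read from these counts. The median log2 fold change was 0.60 over the 6 tested members and -0.01 over all tested genes. Leaving out the library of mouse M_768 with the low scaling factor gave log2 fold changes of 0.58 for APOBEC3G, 0.32 for APOBEC3C, 0.68 for APOBEC3F, 0.73 for APOBEC3D, 0.79 for APOBEC3H and -0.10 for APOBEC3B.

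**Figure D2:**
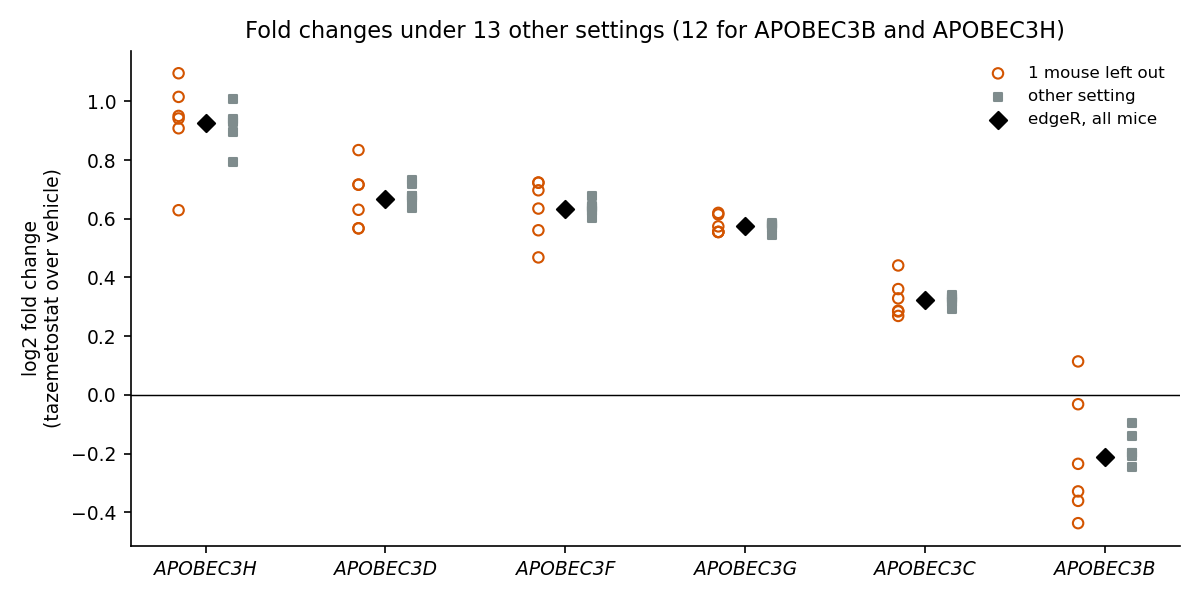
Log2 fold changes of the tested members, tazemetostat over vehicle, with the edgeR fit on all mice as diamonds, fits without 1 mouse as open circles and the other settings as squares. APOBEC3G stays between 0.54 and 0.62, APOBEC3H runs from 0.63 to 1.10, and APOBEC3B crosses 0, from -0.44 to 0.11.

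In TPM, transcripts per 1000000, which divides counts by the deposited gene length, the members kept one order in all 6 mice. APOBEC3C averaged 50.6 ± 4.40 TPM with tazemetostat and 40.2 ± 6.48 with vehicle. APOBEC3G followed at 15.8 ± 1.09 TPM with tazemetostat and 10.5 ± 0.952 TPM with vehicle, and APOBEC3F at 5.22 ± 1.17 TPM with tazemetostat and 3.33 ± 0.404 TPM with vehicle. APOBEC3H averaged 2.34 ± 0.850 TPM with tazemetostat and 1.21 ± 0.0649 TPM with vehicle, the latter from between 27 and 31 counts per mouse. APOBEC3D averaged 1.25 ± 0.190 TPM with tazemetostat and 0.786 ± 0.188 TPM with vehicle. It shares 83.2% of its exonic bases with AL022318.4, which had 0 counts in 18 of 18 libraries. If reads shared by both models were left out, its level per length is an underestimate. This was not tested, so the place of APOBEC3D in the order is uncertain. Its place below APOBEC3H also depended on dividing by length, as APOBEC3D was above APOBEC3H in 5 of 6 mice in CPM. APOBEC3B averaged 0.263 ± 0.120 TPM with tazemetostat and 0.297 ± 0.0462 TPM with vehicle, and APOBEC3A was last.

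How far APOBEC3C stood above APOBEC3G depended on the length used. The deposited length of APOBEC3G is 5437 bases, and its longest coding transcript has 1834 bases, whereas both lengths are 2818 bases for APOBEC3C. With deposited lengths, APOBEC3C made up 67.1% ± 1.65 of the family's summed level in tazemetostat mice and 71.2% ± 1.70 in vehicle mice (SD, n = 3 each). APOBEC3G made up 21.0% ± 1.29 with tazemetostat and 18.8% ± 1.14 with vehicle. All shares given here take APOBEC3D at its level as counted. With the longest coding transcript, APOBEC3C made up 46.9% with tazemetostat and 51.4% with vehicle, and APOBEC3G 43.4% with tazemetostat and 40.1% with vehicle. On that scale APOBEC3C was above APOBEC3G in 5 of 6 mice, with ratios between 0.998 and 1.41, so these neighbours in the order were not clearly apart.

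**Figure D3:**
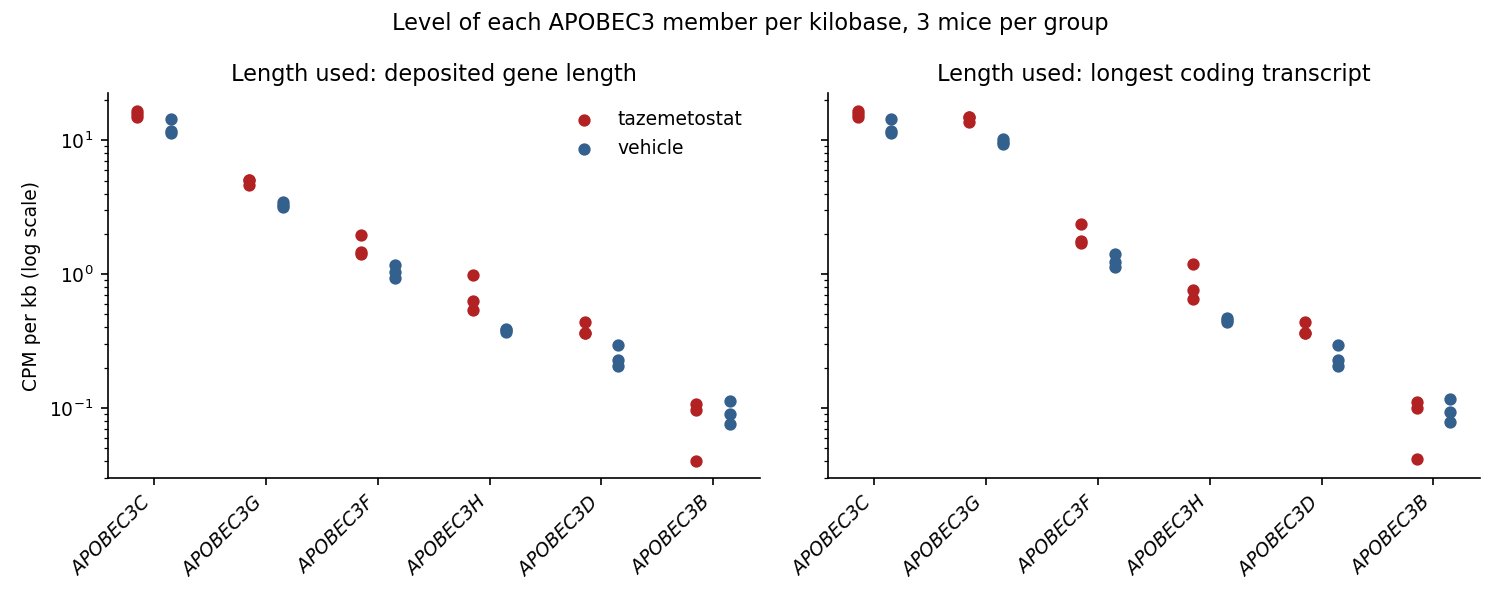
CPM per kb of the 6 tested members on a log axis, a point for each mouse, tazemetostat left of vehicle, with the deposited length in one panel and the longest coding transcript in the other. APOBEC3C and APOBEC3G carry most of the family's level, APOBEC3F, H and D lie below them, and APOBEC3B lies near the bottom. The level of APOBEC3D per kb is uncertain, because most of its exonic bases are shared with AL022318.4.

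The members' levels were also compared with each other over the libraries, where any likeness includes the difference between the groups. Over the 18 libraries Pearson's r of log2 CPM was 0.80 for APOBEC3C with APOBEC3G, 0.77 for APOBEC3F with APOBEC3G and 0.69 for APOBEC3C with APOBEC3F. These were the 3 highest pairs of tested members. The other pairs ran from -0.28 (APOBEC3B with APOBEC3H) to 0.65 (APOBEC3D with APOBEC3F). Libraries of the same mouse are not independent. After subtracting each mouse's mean, r was 0.08 for APOBEC3C with APOBEC3G, 0.05 for APOBEC3F with APOBEC3G and -0.25 for APOBEC3C with APOBEC3F. The other pairs then ran from -0.60 (APOBEC3C with APOBEC3D) to 0.35 (APOBEC3D with APOBEC3F). Among 12733 genes at a mean log2 CPM of at least 1, the genes whose levels followed APOBEC3G most closely over the 18 libraries were CASP1 (r = 0.957), IRF1 (r = 0.945) and GBP1P1 (r = 0.944). Those closest to APOBEC3C were LGALS3BP (r = 0.930), IL15RA (r = 0.918) and UBE2L6 (r = 0.918). Those closest to APOBEC3F were TMEM63B (r = 0.909), C1R (r = 0.899) and GM2A (r = 0.868). By Spearman's rank correlation, 1 of the 3 genes was shared for APOBEC3C, 1 for APOBEC3F and 0 for APOBEC3G.

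Spread between mice was taken from the mean of the 3 libraries of each mouse, and spread within a mouse from single libraries. A mean of 3 libraries varies less than a single library, so these coefficients of variation are not on one scale. For APOBEC3G the coefficient between mice was 6.02% with tazemetostat and 4.04% with vehicle. Between libraries of a mouse it was 4.57% with tazemetostat and 6.81% with vehicle. For APOBEC3C the coefficient between mice was 4.32% with tazemetostat and 13.02% with vehicle, where mouse M_770 was the highest of the vehicle mice. APOBEC2, a relative outside the cluster that is known from muscle, averaged 0.279 ± 0.0281 CPM with tazemetostat and 0.227 ± 0.0856 CPM with vehicle, and APOBEC1, an editor of RNA, had 0 counts.

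**Figure D4:**
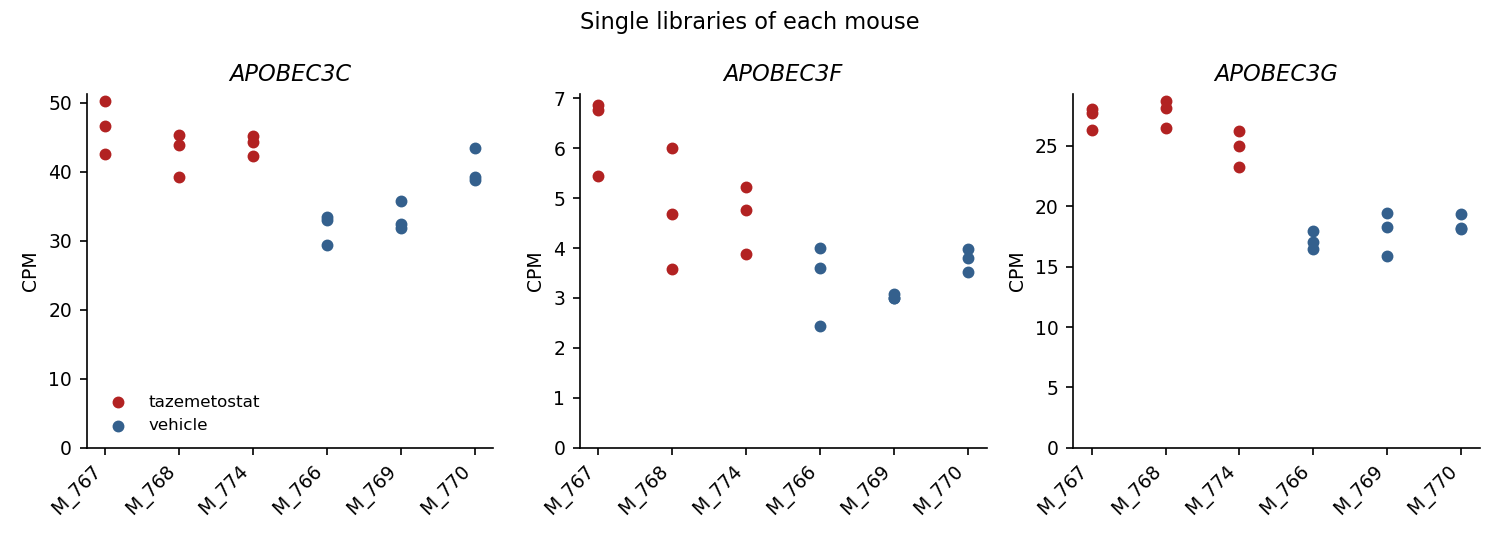
CPM of APOBEC3C, APOBEC3F and APOBEC3G in single libraries, a column of points for each mouse and the tazemetostat mice left of the vehicle mice. For APOBEC3G the libraries run from 23.2 to 28.7 CPM with tazemetostat and from 15.9 to 19.5 CPM with vehicle, whereas APOBEC3C and APOBEC3F libraries overlap between the groups.

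The genes on either side of the cluster were more often negative than positive in log2 fold change, tazemetostat over vehicle. Of 15 neighbours on chromosome 22, 12 were tested, 3 with a positive and 9 with a negative log2 fold change and a median of -0.08, where 10525 of all 20301 tested genes were negative with a median of -0.01. CBX6, on the side of APOBEC3A, averaged 37.8 ± 1.90 CPM with tazemetostat and 43.7 ± 1.07 CPM with vehicle (log2 fold change -0.21, SE 0.0852). CBX7, on the side of APOBEC3H, averaged 1.70 ± 0.0995 CPM with tazemetostat and 2.31 ± 0.519 CPM with vehicle (log2 fold change -0.45, SE 0.211). Among the 3 positive neighbours were MGAT3 (log2 fold change 0.39, SE 0.211) and SYNGR1 (0.42, SE 0.419). For CBX7, MGAT3 and SYNGR1 the mice of the groups overlapped. With edgeR, 0 of the 12 passed at an adjusted p under 0.05, 1 had an unadjusted p under 0.05, a share near the 6.55% of all tested genes, and DESeq2 and limma-voom each called 0.

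**Figure D5:**
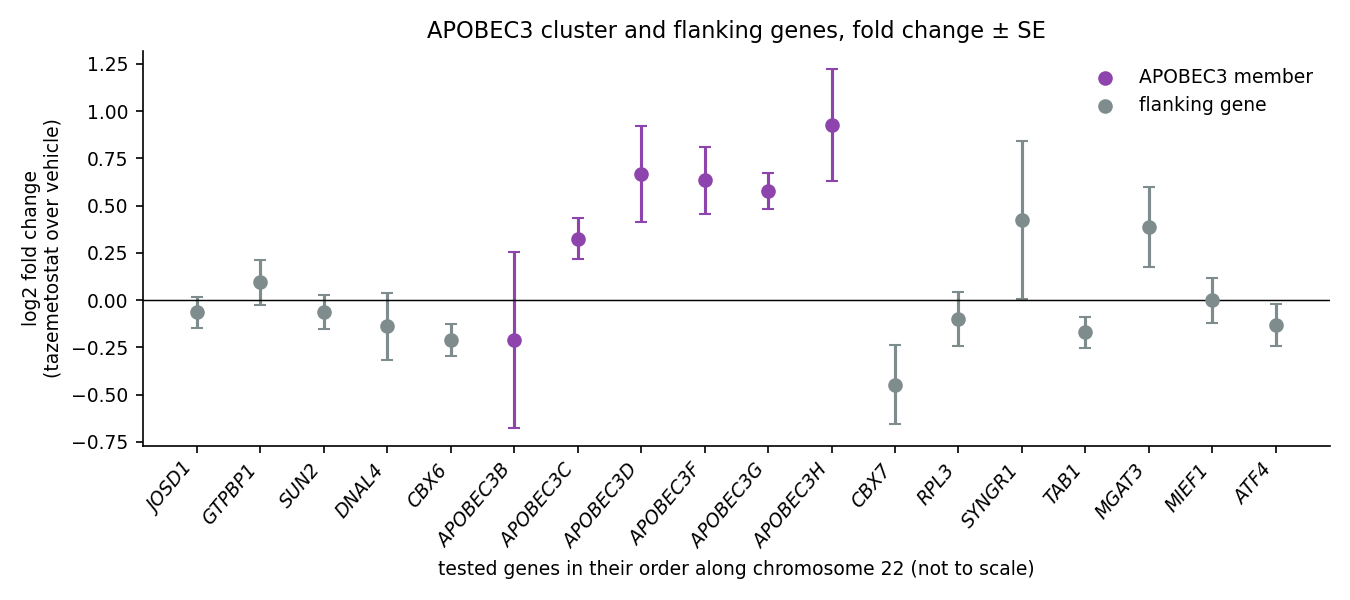
Log2 fold change, tazemetostat over vehicle, of the members and their neighbours in order along chromosome 22. Error bars show the SE, derived from the F statistic of the edgeR test. The tested members other than APOBEC3B lie between 0.32 and 0.93, and CBX6 and CBX7 on either side lie at -0.21 and -0.45. Of the 12 tested neighbours 9 are negative and 3 positive, among the latter MGAT3 at 0.39 and SYNGR1 at 0.42.

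Other lists hold genes of related function. All lists used here were chosen with earlier results of these data known, so their counts are a description and support no claim. Of 18 retroviral restriction factors outside the family, 17 were tested, 15 with a positive and 2 with a negative log2 fold change and a median of 0.32. Over all tested genes 48.2% were positive and the median was -0.01. All 3 tazemetostat mice lay above all 3 vehicle mice for 6 of them, as for 6.59% of all tested genes. With edgeR 0 of the 17 passed at an adjusted p under 0.05, and 9 had an unadjusted p under 0.05, against 6.55% of all tested genes. DESeq2 called 2 (IFITM1 and TRIM22), against 0.656% of genes, and limma-voom called 3 (IFITM1, TRIM22 and TRIM5), against 1.26% of genes. IFITM1, which blocks viral entry, averaged 14.5 ± 2.20 CPM with tazemetostat and 6.92 ± 1.86 CPM with vehicle. TRIM22, an interferon-induced inhibitor of retroviral transcription, averaged 194 ± 25.8 CPM with tazemetostat and 120 ± 2.002 CPM with vehicle. BST2, which tethers budding virus, averaged 105 ± 10.5 CPM with tazemetostat and 79.3 ± 8.92 CPM with vehicle.

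Of 21 known inducers and repressors of APOBEC3 transcription, 12 had a positive and 9 a negative log2 fold change, with a median of 0.01. All tazemetostat mice lay above all vehicle mice for 6 of the 21 and below them for 2. Over all 20301 tested genes these counts were 1337 above and 1218 below. The genes named in this paragraph are all from the positive side. With edgeR 0 of the 21 passed at an adjusted p under 0.05, and 6 had an unadjusted p under 0.05, against 6.55% of all tested genes. DESeq2 and limma-voom each called 3, among them IRF1 and STAT2, against 0.656% of genes with DESeq2 and 1.26% with limma-voom. IRF1, an activator of interferon-responsive genes, averaged 293 ± 1.45 CPM with tazemetostat and 210 ± 8.42 CPM with vehicle (log2 fold change 0.48, SE 0.0833). STAT2, a transducer of type I interferon signals, averaged 210 ± 15.2 CPM with tazemetostat and 142 ± 17.2 CPM with vehicle (log2 fold change 0.57, SE 0.109). IRF9, the DNA-binding partner of STAT2, averaged 21.95 ± 1.75 CPM with tazemetostat and 17.6 ± 0.664 CPM with vehicle (log2 fold change 0.32).

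The deaminases of other families and the repair list split almost evenly between directions. Of 12 tested deaminases of nucleosides, tRNA or RNA, 7 had a positive and 5 a negative log2 fold change, with a median of 0.01. ADARB1, an editor of adenosine in RNA, averaged 11.4 ± 0.210 CPM with tazemetostat and 14.5 ± 1.72 CPM with vehicle. Of 18 genes on the uracil repair list, 10 were positive and 8 negative, with a median of 0.01. SAMHD1, which hydrolyses deoxynucleotides rather than repairing uracil and is on the restriction factor list as well, averaged 32.4 ± 2.42 CPM with tazemetostat and 26.0 ± 3.59 CPM with vehicle. With edgeR 0 genes of both lists passed at an adjusted p under 0.05. At an unadjusted p under 0.05 edgeR gave 2 of 12 deaminases, both lower with tazemetostat, where 6.55% of all tested genes had one. Of the 18 genes of the repair list it gave 1 (SAMHD1), which was higher. DESeq2 and limma-voom called 0 in each list.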

How the data were processed

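Bulk RNA-seq of sorted OCI-Ly18 tumour cells was deposited as gene-level raw counts, whole numbers per gene and library, on hg38 per the submitters' processing notes, which also name DESeq2. The sources used here name no aligner, counter, strand setting or rule for multimapping reads. All 58735 gene IDs matched the coordinates of GENCODE release 29.

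Summed counts per mouse were used, and 3 tazemetostat mice were compared with 3 vehicle mice by edgeR 4.0.16 quasi-likelihood tests in R 4.3.3 (TMM scaling, filterByExpr minimum count 10, Benjamini-Hochberg adjusted p under 0.05). The filter removed genes holding 0.0602% of counts. CPM values are TMM-scaled. The SE of a log2 fold change was derived as its absolute value divided by the square root of the test's F statistic. TPM were computed from the deposited counts and deposited gene lengths. Alternatives were other scalings and filters, DESeq2 1.42.0, limma 3.58.1 voom on single libraries (mouse as random effect), leaving out each mouse or library C of mouse M_768, and the longest coding transcript as length, which was added after seeing the data. An exact permutation test of 3 against 3 mice cannot go below p = 0.1. Nothing in the labels says that mice were processed on separate days, and no batch is given.

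All 7 members were named, with up to 4 genes of the smallest p in each list, a few set genes and the 3 genes closest to each member in expression. Members and lists were chosen with earlier results of these data known. Some genes of these lists are not reported here.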

Additional observations from a re-analysis of the deposited data

Results flagged for a closer look

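APOBEC3A reached 0.0536 CPM in library C of vehicle mouse M_769, from 1 count, while all 9 tazemetostat libraries and the other 8 vehicle libraries had 0 counts. The library stood apart from its group by Dixon's ratio, which is 1 by construction where a single count stands among zeros, so nothing is read from it.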

How the results depend on the processing

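With edgeR as described, 7 genes were called over both directions. The count was 252 with no low-count filter, 119 with DESeq2 and 256 with limma-voom, and ran from 0 to 59 when each mouse was left out in turn: 0 without tazemetostat mouse M_768, tazemetostat mouse M_774 or vehicle mouse M_769, 1 without tazemetostat mouse M_767, 26 without vehicle mouse M_766 and 59 without vehicle mouse M_770. Of the members, 0 were called with edgeR as described or with any mouse left out, 1 with no low-count filter (APOBEC3G), 1 with DESeq2 (APOBEC3G) and 2 with limma-voom (APOBEC3C and APOBEC3G). The log2 fold changes of APOBEC3C, D, F, G and H stayed positive under every alternative run. That of APOBEC3B reversed to 0.11 without tazemetostat mouse M_768 and was as low as -0.44 without tazemetostat mouse M_774. The cause of these differences was not tested. No paired analysis was possible because the groups hold different mice and the letters A to C name libraries of a mouse. A minimum count of 50 left APOBEC3B and APOBEC3H untested and gave no value for them. Low counts limit APOBEC3A, APOBEC3B, APOBEC3D and APOBEC3H.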
